A study of Mus musculus with 8 samples.

Results

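The liver sends metabolic signals to other organs as secreted proteins, often called hepatokines, and 9 genes of this kind are described here: Fgf21, Gdf15, Igfbp1, Igfbp2, Igfbp4, Angptl4, Angptl8, Fst and Inhbe. They were found by gene symbol in a table of 24547 genes of mouse liver, and all 9 were present. The libraries came from liver of ICR mice, an outbred strain. Mice of the treated group (4 libraries) received high-dose Psoraleae Fructus decoction, an extract of a legume fruit (Psoralea corylifolia), into the stomach over 30 days, and the control group (4 libraries) is labelled Control, with saline named in the dosing protocol. No dose in units of mass, sex, age, feeding state or hour of collection is stated in the labels, and nothing ties a library to a named animal, so p-values reflect the variation among libraries, which may be partly technical. The question is whether these signals differ in liver after the treatment; the series title speaks of liver damage induced by the decoction.

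These genes belong to a few signalling systems. FGF21 is a hormone of fasting and nutrient stress that acts on fat and brain through an FGF receptor and the co-receptor beta-klotho, and GDF15 is a stress hormone of the TGF-beta family that lowers food intake through the brainstem. The IGF binding proteins hold insulin-like growth factors in the circulation, and among them IGFBP1 is known for its strong repression by insulin. ANGPTL4 and ANGPTL8 restrain lipoprotein lipase and are known for opposite responses to fasting and feeding, follistatin (Fst) neutralises activins, and Inhbe encodes the activin E subunit made mainly by hepatocytes.

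Promoters of 7 of the 9 genes were found in a RefSeq table on GRCm38.p6, which holds 9 start sites for them, each from 250 bases before to 50 bases after the start. The stretches below are shown because each holds a short motif known from the control of this gene class, in capitals, read 5′ to 3′ on the strand of the gene. The motif TGATGNAA, the composite element of ATF4 and C/EBP factors, was found in Fgf21, Inhbe and Angptl8, and in 3.97% of all 32851 promoters of the table. The letters CAAAACA of the insulin response element were found in Igfbp1 and in 6.28% of all promoters, and the E-box CACGTG in Fgf21, Igfbp2 and Gdf15 and in 7.15% of all. Both strands were searched, and none of these matches overlapped another. The forkhead letters TGTTTAC (3.65% of all promoters) and the CRE core TGACGT (7.51%) had no match in these windows.
Fgf21: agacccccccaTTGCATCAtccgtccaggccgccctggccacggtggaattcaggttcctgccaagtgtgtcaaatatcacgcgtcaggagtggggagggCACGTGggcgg
Inhbe: atcatcctctttcTTGCATCAtgcatgtcc
Angptl8: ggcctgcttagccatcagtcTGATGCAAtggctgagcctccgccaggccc
Igfbp1: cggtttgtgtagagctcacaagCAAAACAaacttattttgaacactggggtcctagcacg
Igfbp2: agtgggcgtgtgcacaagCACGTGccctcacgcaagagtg
Gdf15: cacagggcagggCACGTGtgagcatccagt
The stretches lie at chr7:45615530-45615640 (minus strand) for Fgf21, chr10:127352013-127352042 (minus) for Inhbe, chr9:21835360-21835409 (plus) for Angptl8, chr11:7197657-7197716 (plus) for Igfbp1, chr1:72824320-72824359 (plus) for Igfbp2 and chr8:70632161-70632190 (minus) for Gdf15. In Fgf21 and Inhbe the composite element reads TTGCATCA on the gene's strand, which is the reverse complement of the TGATGCAA of Angptl8. It starts 139 bases before the start site in Fgf21, 181 in Inhbe and 130 in Angptl8. The Gdf15 match belongs to the second of its 2 RefSeq starts, and 196 of the 250 bases before that start lie in exons of its GENCODE model. For Inhbe all 250 bases before the start lie in exons of its GENCODE model, so by that model its match is in transcribed sequence. Only 30 bases of each are therefore shown. A match describes letters and is not evidence of binding.

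None of the 9 genes passed the test across all genes. With edgeR's quasi-likelihood test and Benjamini-Hochberg adjustment over 12861 genes, 0 of 9 were called at an adjusted p under 0.05, against 9.21% of all genes tested (5.46% higher and 3.75% lower in treated libraries). All 9 had enough counts to be tested, and 3 of them, Gdf15, Igfbp1 and Igfbp4, had an unadjusted p under 0.05. DESeq2's Wald test called the same 3 (adjusted p = 0.0118 for Gdf15, 0.041 for Igfbp1 and 0.0229 for Igfbp4), in a fit that called 15.4% of all genes it tested, and limma-voom called 0. The fitted change was above 0 in 4 genes and below 0 in 5, with a median of -0.03 on the log2 scale beside -0.04 over all genes. Values below are CPM (counts scaled to library size with edgeR's TMM factors) in libraries 1 to 4 of each group, and fold changes are log2, treated minus control. In bulk liver, fewer cells of a type and less RNA per cell cannot be told apart.

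**Figure D1:**
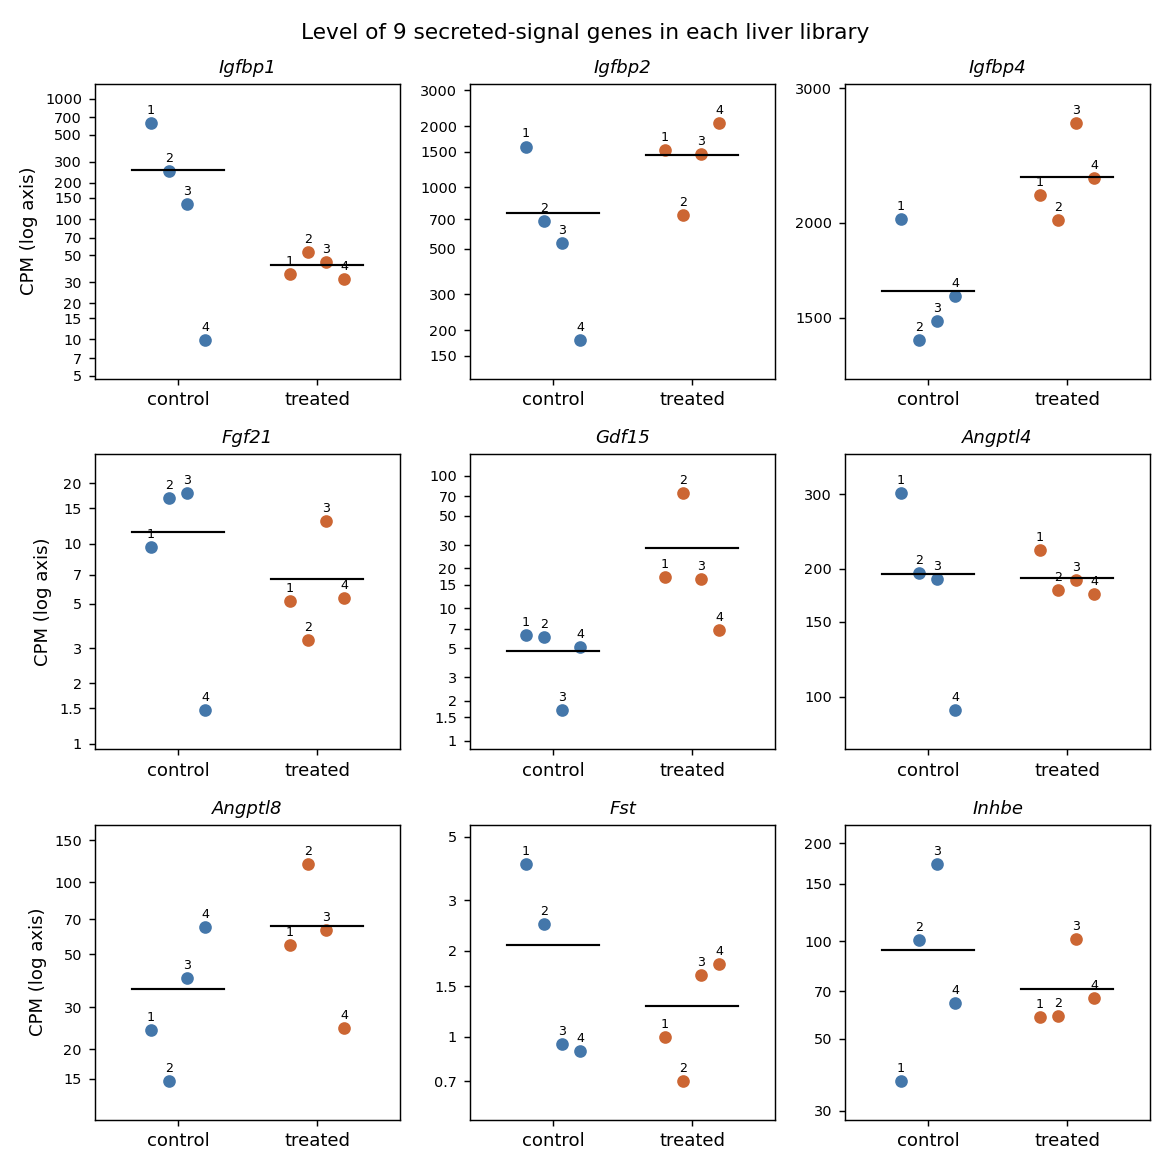
CPM of each gene on log axes for the 4 control (blue) and 4 treated (orange) libraries, with the replicate number above each point and a bar at the group mean. Gdf15 is the only one of the 9 whose groups do not overlap, from 1.70 to 6.25 CPM in controls and from 6.81 to 74.0 CPM in treated libraries.

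Gdf15 (chromosome 8, 70629393 to 70632456, minus strand) had its 4 highest values in the 4 treated libraries. Its CPM was 17.2, 74.0, 16.6 and 6.81 in treated libraries 1 to 4 and 6.25, 6.05, 1.70 and 5.09 in controls 1 to 4. The groups did not overlap, as held for 18.9% of all genes tested, but treated library 4 lay close above the highest control and treated library 2 far above the rest. The fitted difference was 2.58 (SE 0.79, 95% interval 0.73 to 4.43, edgeR adjusted p = 0.0848), and an exact two-sided permutation test of log2(CPM + 0.5) gave p = 0.0286, the smallest that 70 assignments allow. Any gene whose groups do not overlap reaches this p, so it restates that separation and adds no further support. Without treated library 2 the difference was 1.52 (SE 0.46, adjusted p = 0.0998). On the deposited FPKM scale, which lacks the TMM scaling, treated library 4 at 3.57 lay just under control 2 at 3.62, so the groups overlapped there.

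Treated library 2 was also the highest of all libraries in Fos, Fosb, Jun, Junb, Egr1, Ier2, Atf3, Dusp1 and Nr4a1. These are immediate early genes, which respond within minutes to stimuli and handling, and of the listed ones Ier3 was the only exception. Fos was at 122 CPM in that library and from 0.78 to 2.91 CPM in the other treated libraries, with controls from 2.69 to 5.67 CPM. Egr1 was at 88.9 CPM against 4.90 to 8.01 CPM in the other treated libraries, but control 4 reached 67.0 CPM, with controls 1 to 3 from 9.05 to 19.5 CPM. Ier3, at 2.05 CPM, did not exceed control 2 at 2.07 CPM. Of 9 tested genes of the immediate early list none was called. Fos, Egr1 and Ier3 were chosen for printing after their values were seen. The part of the listed genes in the Gdf15 level of this library was not tested.

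Fgf21 (chromosome 7, 45613886 to 45615490, minus strand) was spread widely in both groups. It stood at 9.61, 16.9, 17.9 and 1.47 CPM in controls and at 5.15, 3.29, 12.9 and 5.32 CPM in treated libraries. The lowest and the highest of the 8 values were both controls, so the treated range lay within the control range. The group means were 11.5 ± 7.60 against 6.67 ± 4.27 CPM (SD, n = 4 each), and the difference of -0.78 had a 95% interval from -2.43 to 0.87 (SE 0.71, edgeR adjusted p = 0.502). Both a lower and a higher level in treated livers lie within this interval.

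Igfbp1 (chromosome 11, 7197782 to 7202546, plus strand) showed the widest control range of the 9. It stood at 632, 252.9, 133 and 9.97 CPM in the controls, a 63.4-fold range, and at 35.0, 53.4, 44.2 and 31.9 CPM in treated libraries, a 1.67-fold range. All 4 treated libraries lay below controls 1, 2 and 3 and above control 4. The fitted difference was -2.64 (SE 1.01, 95% interval -5.03 to -0.26, edgeR adjusted p = 0.14), while the difference of mean log2(CPM + 0.5) was -1.58 (exact two-sided permutation p = 0.286). Without control 4 the gene was called, with a difference of -3.04 (SE 0.52, edgeR adjusted p = 0.0127) where 17.8% of all genes were called. It was also called without controls 2 and 4 (-3.21, edgeR adjusted p = 0.0389, 8.07% of all genes called), which leaves controls 1 and 3 alone. No other pair was left out, and this fit also lacks control 4, so it adds no separate support. Without control 1 the difference was -1.68 (edgeR adjusted p = 0.272). With edgeR the call of Igfbp1 thus turned on control 4.

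Igfbp2 (chromosome 1, 72824503 to 72852474, plus strand), a leptin-responsive IGF binding protein, had overlapping groups. Control values were 1587, 682.9, 536 and 179.6 CPM and treated values 1523, 731, 1460 and 2077 CPM. Control 4 was again the lowest of 8, and control 1 reached the level of the treated libraries. The difference was 0.96 (SE 0.60, 95% interval -0.41 to 2.32, edgeR adjusted p = 0.321), 1.64 without control 1 (adjusted p = 0.0817) and 0.46 without controls 2 and 4.

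Igfbp4 (chromosome 11, 99041244 to 99054392, plus strand) varied least of the 9 among controls, whereas Angptl4 varied least among treated libraries (SD of log2 CPM 0.16 against 0.18 for Igfbp4). It stood at 2019, 1405, 1486 and 1604 CPM in controls and at 2172, 2014, 2704 and 2290 CPM in treated libraries. Treated library 2 lay just below control 1 and the other treated libraries above all controls. The difference was 0.49 (SE 0.18, 95% interval 0.10 to 0.89, edgeR adjusted p = 0.105; exact two-sided permutation p = 0.0571). On the deposited FPKM scale, from 337.5 to 438 in controls and from 474 to 573 in treated libraries, the groups did not overlap, as held for 18.1% of all genes, and limma on log2(FPKM + 1), restricted to a mean FPKM of 0.5 or more, called the gene (0.46, adjusted p = 0.0461), with 7.51% of all genes called. Of the 9 genes, Gdf15 alone was free of overlap with TMM scaling and Igfbp4 alone without it.

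**Figure D2:**
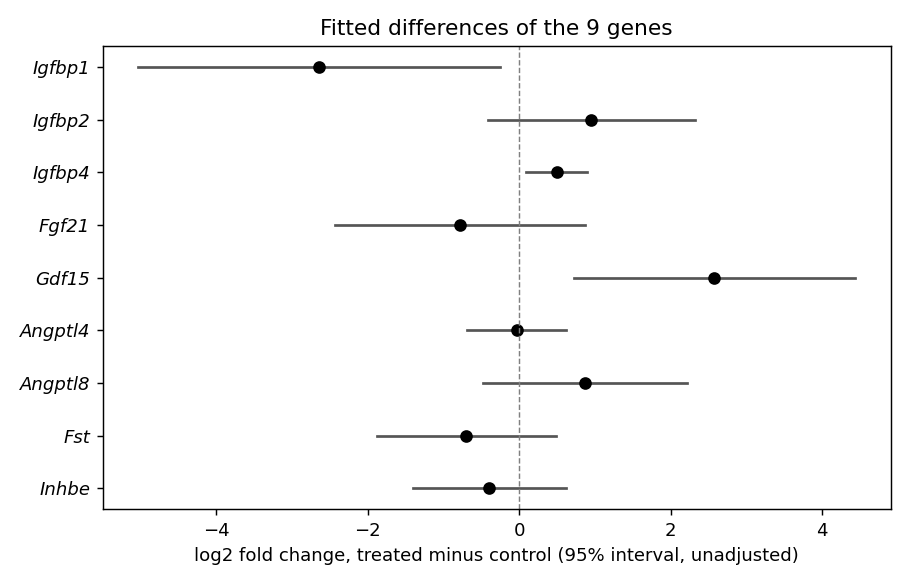
Fitted log2 fold change of each gene (points, treated minus control, from edgeR) with its unadjusted 95% interval (lines). The intervals of Gdf15, Igfbp1 and Igfbp4 leave out 0 before adjustment, and none of the 9 passed the adjusted test.

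Angptl4 (chromosome 17, 33773750 to 33781830, minus strand), which unfolds lipoprotein lipase in fasting, had nearly equal group means. Control values were 301.6, 195, 189.6 and 92.9 CPM and treated values 221, 178, 188 and 174 CPM. The treated libraries lay within the control range, which was set by controls 1 and 4. The difference was -0.03 (SE 0.29, 95% interval -0.69 to 0.63, edgeR adjusted p = 0.955), and its sign turned in several alternatives, up to 0.26 without control 1.

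Angptl8 (chromosome 9, 21835510 to 21837347, plus strand), a feeding-responsive gene, was lowest among controls in control 2. It stood at 23.9, 14.7, 39.6 and 65.0 CPM in controls, with control 4 the highest of them, and at 54.4, 119.8, 62.9 and 24.6 CPM in treated libraries. The groups overlapped through control 4 and treated library 4. The difference was 0.87 (SE 0.58, 95% interval -0.48 to 2.22, edgeR adjusted p = 0.357), and 0.31 once trends with gene length and GC content were removed.

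The activin genes also overlapped between groups. Inhbe (chromosome 10, 127348857 to 127354411, minus strand) was at 37.2, 100.8, 173 and 64.3 CPM in controls and at 58.5, 58.7, 101.7 and 66.9 CPM in treated libraries. The controls again held the lowest and the highest value, and the difference was -0.39 (SE 0.44, 95% interval -1.40 to 0.61, edgeR adjusted p = 0.586). It was 0.08 without control 3. Fst (chromosome 13, 114452290 to 114458951, minus strand) was scarce, with 67, 48, 15 and 17 raw counts in controls and 20, 12, 27 and 30 in treated libraries. These are 4.03, 2.48, 0.94 and 0.89 CPM against 1.0, 0.70, 1.64 and 1.79 CPM, and controls 1 and 2 alone lay above the treated range. The difference was -0.70 (SE 0.53, 95% interval -1.88 to 0.48, edgeR adjusted p = 0.406), and -0.17 without control 1. Exons of Fst overlap the annotated antisense gene Gm47040, and without strand information the reads of the pair cannot be told apart.

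Compared per length on the FPKM scale (deposited values, scaled to gene length and library size), the binding proteins made up most of this group. Igfbp2 and Igfbp4 led in both groups, with means of 405 ± 307 and 372 ± 44.8 FPKM in controls and 765 ± 280.0 and 509.7 ± 43.9 FPKM in treated libraries (SD, n = 4). Their ranges overlapped in both groups, so their order is not fixed by these libraries. Igfbp1 followed in controls at 168 ± 168 FPKM, below Igfbp4 in each of the 4 libraries. Then came Angptl4 at 55.6 ± 22.9, Angptl8 at 41.5 ± 24.9, Inhbe at 18.1 ± 11.3, Fgf21 at 12.4 ± 8.54 and Gdf15 at 2.62 ± 1.19 FPKM. From Igfbp1 to Fgf21 each overlapped in range with the next and lay above it in 3 of the 4 controls. Fst came last at 0.46 ± 0.32 FPKM, below the range of Gdf15. In treated libraries Igfbp4 lay wholly above Angptl8 (75.5 ± 49.1 FPKM), and Angptl4 (52.98 ± 6.34) wholly above Igfbp1 (26.7 ± 7.08). Below it came Gdf15 at 15.7 ± 17.4 FPKM, Inhbe at 13.1 ± 3.22 and Fgf21 at 6.78 ± 4.05. Igfbp1, Gdf15 and Inhbe each overlapped in range with the next, but Inhbe was above Fgf21 in all 4 treated libraries. Fst at 0.27 ± 0.10 again lay below the rest. Gdf15 was above Inhbe in only 1 of the 4 treated libraries, treated library 2 at 41.5 FPKM, so its place above Inhbe rests on that library. The summed FPKM of the 9 genes ran from 582 in control 4 to 1785 in control 1, and from 1175 to 1713 in treated libraries. The 3 binding proteins held from 79.8% to 92.8% of this sum in controls and from 78.5% to 94.3% in treated libraries, and the share of Igfbp1 alone ran from 1.12% in control 4 to 22.2% in control 1.

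The spread between control libraries was wide for most of these genes. The SD of log2 CPM over the controls was 2.56 for Igfbp1, 1.64 for Fgf21 and 1.29 for Igfbp2, beside a median of 0.30 over all genes tested, and in 7 of the 9 genes it lay above the 90th percentile of all genes. In treated libraries 4 of the 9 lay above that percentile, with 1.42 for Gdf15 and 0.94 for Angptl8 and a median over all genes of 0.22. The SD was larger in controls for 7 of 9 genes (77.8%), and for 68.1% of all genes tested, so this share was near that of the table as a whole. Igfbp4, at 0.23 in controls and 0.18 in treated libraries, was the exception with a spread below the median of all genes in both groups.

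**Figure D3:**
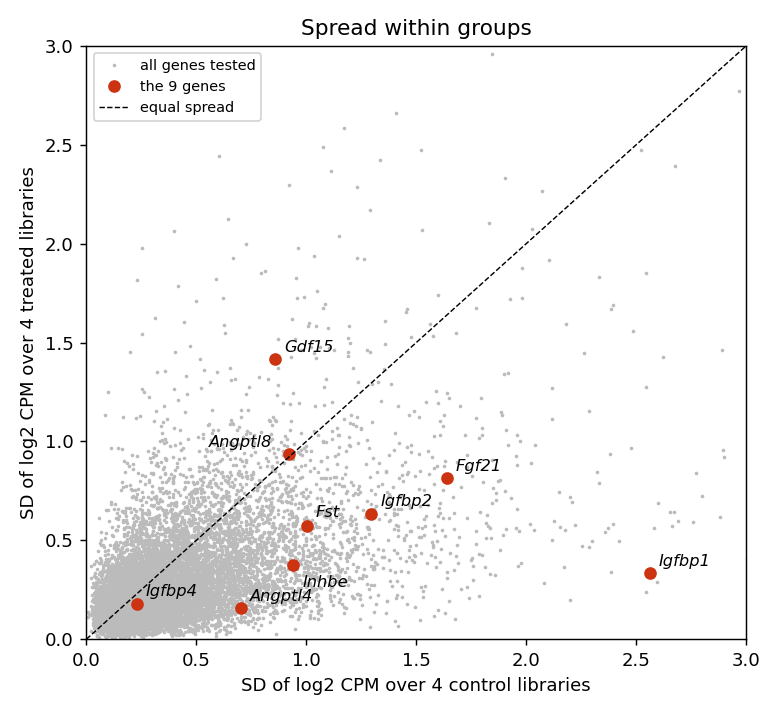
SD of log2 CPM over the 4 control libraries (horizontal) against the 4 treated libraries (vertical), for all genes tested (grey, 33 genes beyond the axes) and the 9 genes (red). Igfbp1, at 2.56 in controls and 0.33 in treated libraries, lies farthest from the line of equal spread among the 9.

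The libraries that set this spread were the same for several genes. Control 4 was the lowest of all 8 libraries in Igfbp1, Igfbp2, Fgf21 and Angptl4 and the second highest in Angptl8. Control 1 was the highest of all 8 in Igfbp1, Angptl4 and Fst and the lowest in Inhbe. Treated library 2 was the highest in Gdf15 and Angptl8 and the lowest in Fst.

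**Figure D4:**
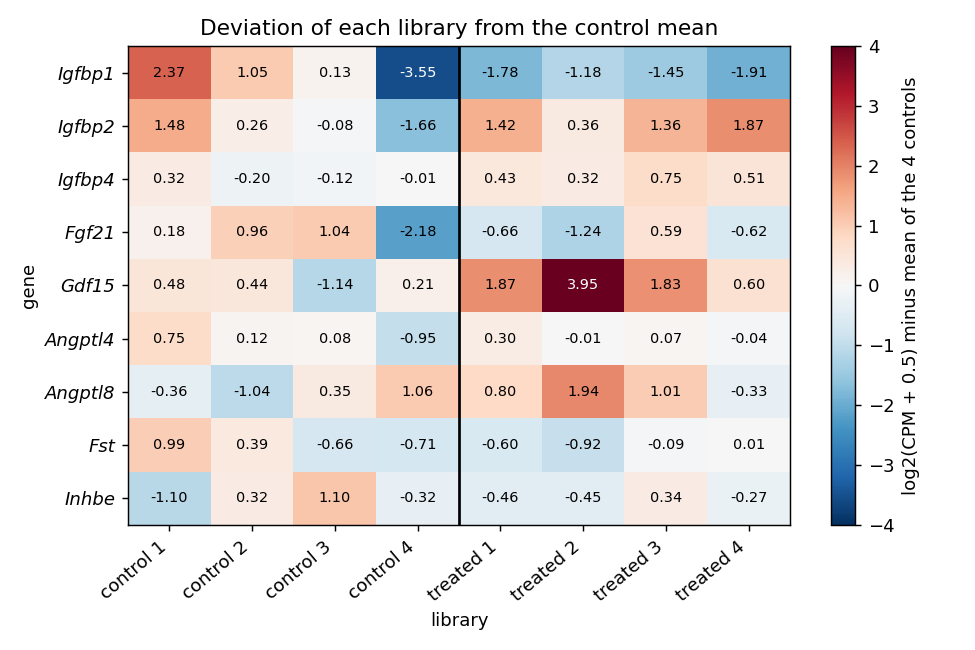
Difference of log2(CPM + 0.5) in each library (columns) from the mean of the 4 controls, for the 9 genes (rows), red above and blue below. Control 4 is at -3.55 for Igfbp1 and -2.18 for Fgf21, and treated library 2 is at 3.95 for Gdf15.

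Single genes of fasting, feeding and the clock also differed between these libraries, but not in 1 common order. Among genes chosen after their values were seen, Cyp4a14, a fatty acid hydroxylase and target of the receptor PPARa, was at 2686, 2045, 2324 and 1.94 CPM in controls 1 to 4 and from 119 to 848 CPM in treated libraries. Pck1 and G6pc, which make glucose in fasting, were highest in control 1, at 4783 and 574 CPM, and lowest among controls in control 4, at 548 and 102.7 CPM. Srebf1, which rises with insulin, ran from 22.1 CPM in control 1 to 143 CPM in control 4. Pdk4, a kinase that spares glucose in fasting, was at 37.6 CPM in control 1, below controls 2 and 3 at 106 and 86.7 CPM, and at 6.56 CPM in control 4. Ppargc1a, a coactivator of fasting genes, was highest in control 1 at 45.9 CPM but lowest among controls in control 3, at 8.80 CPM. The clock output gene Dbp was at 35.6 CPM in control 4, between 0.16 and 2.04 CPM in controls 1 to 3 and from 38.0 to 79.4 CPM in treated libraries. The part of feeding state or hour of collection in the levels of the 9 genes was not tested, and the labels give neither.

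Partners of these signals are given by list, each count to be read beside the 9.21% of all genes called. In the IGF axis 1 of 9 tested genes was called, a share near that of all genes, and it rose: Igf2r, a receptor that clears IGF2, went from 34.4 ± 2.43 to 46.8 ± 2.79 CPM (0.44, SE 0.10, edgeR adjusted p = 0.0281). Igf1 itself, which IGFBPs bind, stood at 768 ± 202 against 587 ± 86.2 CPM (adjusted p = 0.233). None of 12 tested genes of FGF21 signalling and its regulators was called, among them Creb3l3 at 349 ± 63.4 against 319 ± 52.9 CPM and Ppara, a fasting receptor that drives Fgf21, at 145 ± 8.41 against 149.7 ± 11.7 CPM. The beta-klotho gene Klb stood at 48.9 ± 2.95 against 45.2 ± 6.02 CPM (adjusted p = 0.559). Of 17 tested integrated stress response genes none was called, with Cth at 549 ± 208 against 540.2 ± 134 CPM and Atf5 at 299 ± 87.0 against 353 ± 134 CPM. Atf4 itself stood at 54.0 ± 7.84 against 73.2 ± 4.36 CPM (0.44, SE 0.12, edgeR adjusted p = 0.054). Its groups did not overlap, as held for 18.9% of all genes tested. The list went both ways, from Vldlr at 1.16 to Ddit4 at -1.39, with a median of 0.07 beside -0.04 over all genes.

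Lists tied to lipid use and activins gave 1 or 2 calls each, all of them higher, beside 5.46% of all genes tested. In the list of PPARa targets Fabp1 and Acaa1b rose and 17 of 19 genes were not called, and the list median was -0.25 beside -0.04 over all genes. Fabp1 was 1.77 higher (SE 0.30) and Acaa1b, whose reads its paralog Acaa1a could share, was 1.12 higher (SE 0.23, adjusted p = 0.0202 by edgeR). In the lipoprotein lipase system 2 of 15 rose, Apoe, a ligand for remnant uptake, from 12290 ± 2131 to 21090 ± 2167 CPM and Pcsk6, a proprotein convertase that can cleave lipases, from 130.4 ± 18.1 to 184 ± 8.67 CPM (0.50, SE 0.13, edgeR adjusted p = 0.0429). In the activin and follistatin system 1 of 15 tested genes rose, the pathway inhibitor Smad7, from 9.97 ± 1.58 to 21.4 ± 6.15 CPM (1.10, SE 0.23, edgeR adjusted p = 0.0223). Inhbc, the other hepatocyte activin gene, was at 61.9 ± 20.5 against 65.4 ± 12.8 CPM (adjusted p = 0.857).

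In the list of insulin and FOXO1 regulated genes, which includes enzymes that insulin turns on and off, 1 of 17 rose and 1 fell. Acacb, an acetyl-CoA carboxylase, fell by 1.57 on the log2 scale (SE 0.31) and Pik3r1, a regulatory subunit of PI3 kinase, was 0.52 higher (SE 0.13, edgeR adjusted p = 0.0352). Of 15 p53 targets, to which Gdf15 is often counted, Eda2r, Bax and Aen rose and none fell, beside 5.46% higher and 3.75% lower over all genes. Eda2r went from 0.89 ± 0.44 to 3.46 ± 0.74 CPM, while Cdkn1a, the best known target, was at 65.7 ± 51.8 against 21.5 ± 10.01 CPM (adjusted p = 0.26). After the length and GC correction Bax was 0.22 higher, against 0.77 before, and was not called (adjusted p = 0.45). Of 25 other secreted liver proteins none was called, with Ahsg at 7403 ± 541 against 8957 ± 1402 CPM and Ttr at 3513 ± 937.5 against 4207 ± 624 CPM. Of 18 clock genes Arntl, Npas2 and Cry1 fell and Per2 rose, beside 9.21% called over all genes, and the list median was 0.64.

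The calls of these partner genes held to differing degrees when single libraries were left out. Fabp1, Arntl and Npas2 were called by edgeR in 8 of 8 such fits, Acaa1b, Eda2r and Per2 in 6, Acacb and Bax in 5, Smad7 in 4, Pik3r1 in 3, Igf2r, Apoe and Aen in 2, and Pcsk6 and Cry1 in 1. Except for Fabp1, Arntl and Npas2, each of these calls was lost without treated library 3, a fit in which 183 genes of the whole table were called. Leaving out control 4 added calls instead, in a fit that called 17.8% of all genes. The clock genes called higher then numbered 8 (4 lower), those of the lipoprotein lipase system called higher 6, and the PPARa targets called lower 5 (0 with all libraries) beside 2 higher. In the list of insulin and FOXO1 regulated genes 3 were higher and 3 lower, and in the integrated stress response 2 were higher, as they were without control 1, and 1 was higher without control 2. Without control 4, of the other lists with no call in the fit of all libraries, FGF21 signalling had 1 higher and 1 lower gene and the other secreted liver proteins 2 higher and 1 lower. Once trends with gene length and GC content were removed, Acaa1b, Apoe, Pcsk6, Bax and Cry1 were not called.

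The livers carried the markers of their tissue. The 10 hepatocyte markers summed to 56540 to 72070 FPKM in controls and to 64560 to 69990 FPKM in treated libraries, and none was called. Counts of fallen markers are to be read beside the 3.75% of all genes called lower. Of 10 macrophage markers 3 fell, with sums of 255 to 621 against 149.9 to 324 FPKM. The 10 listed T and NK cell markers summed to 5.499 to 23.0 against 3.54 to 4.51 FPKM, and of the 6 tested 3 fell. Among these, Cd3g and Nkg7 were scarce, with means of 1.52 and 2.41 CPM in controls against 0.41 and 0.70 CPM, and Il2rb went from 9.11 to 2.45 CPM. Sinusoidal endothelial markers fell in 2 of 10 (89.7 to 116 against 58.2 to 99.0 FPKM) and stellate cell markers in 1 of 10 (156 to 164 against 126 to 153.5 FPKM). The stellate marker called was Pdgfra, at 15.6 ± 2.59 against 7.04 ± 0.71 CPM (-1.14, SE 0.16, edgeR adjusted p = 0.00667). The stellate count was 2 without control 1, and 1 without any other single library and after the length and GC correction. The macrophage, T and NK cell and endothelial counts moved with most single libraries. Fallen macrophage markers numbered 0 without control 2, without any 1 treated library and after the length and GC correction, 1 without control 1 or control 3, and 7 without control 4. Fallen T and NK cell markers numbered 0 without control 3 or without treated library 1, 2 or 3, 1 without control 2, 2 without treated library 4 and after the correction, 3 without control 1 and 7 without control 4. Fallen endothelial markers ran from 0 to 3 over these fits. The part of these cell types in the levels of the 9 genes was not tested. Of 12 listed markers of exocrine pancreas, another source of Fgf21, 9 were in the table and 8 of them were under 1 FPKM in all libraries, with Cpa1 at 0 in all controls. The list summed to 2.89 to 24.8 FPKM in controls and 4.24 to 8.07 FPKM in treated libraries, nearly all of it from Cela1, which was at 57.3 CPM in control 4 and from 5.74 to 17.65 CPM in the other libraries. Of 7 adipocyte markers in the table Plin1, Retn and Cidea were at 0 in all 8 libraries, with sums of 1.46 to 6.24 FPKM in controls and 1.68 to 5.98 FPKM in treated libraries.

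The genes closest in pattern to each of the 9 were sought among 8974 tested genes of mean CPM at least 5, by Pearson correlation of log2 CPM over the 8 libraries, as a description. The group difference and the outlying libraries enter each coefficient. The best of so many genes over 8 libraries can reach a high coefficient by selection alone. Igfbp1 was most like Fosl2 (0.98), Igfbp2 most like Upf1 (0.99) and Igfbp4 most like Cox4i1 (0.98), a subunit of the respiratory chain. Fgf21 was most like Cib1 (0.98). Gdf15 was most like Mfhas1 (0.97). Angptl4 was most like Mfsd2a (0.97), a lipid transporter, and Angptl8 most like Hsd3b3 (0.98). Fst was most like Nucks1 (0.96) and Inhbe most like Tmem125 (0.93).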

How the data were processed

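Liver RNA was measured in 4 treated and 4 control libraries. Trizol extraction, poly-A selection and NEBNext Ultra library preparation, which does not mark strand, are stated per the labels' protocols. The authors deposited raw read counts per gene and FPKM values of the same libraries. Tools named per the submitters' processing notes, without their roles, are DESeq2 1.32.0, HISAT2 and HTSeq 0.13.5, on build GRCm38. Annotation release and strand setting: not given in the sources used here. Library totals ran from 15864399 to 19153845 counts in controls and from 16398729 to 20159132 in treated libraries. No pair of libraries held near-identical counts (chi-square per degree of freedom at least 29.7).

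Counts were fitted in R 4.3.3 with edgeR 4.0.16 (filterByExpr with minimum count 10 and minimum total 15, TMM factors, robust quasi-likelihood F test, group as the only term) across 12861 genes, after a test on simulated data. Calls required an adjusted p (Benjamini-Hochberg) under 0.05. SE values derive from the F statistic, and 95% intervals are unadjusted. Positions, exon overlaps and GC content came from GENCODE M21 (24540 of 24547 identifiers matched), and gene length was recovered from the deposited FPKM. DESeq2 1.42.0 and limma 3.58.1 served as alternatives. The 9 genes and the gene lists were chosen with earlier results of these data known. From each pathway list, up to 4 called genes of smallest adjusted p are named, or the 2 of highest mean FPKM where none was called. Other genes named from the lists were chosen after their values were seen. They include Igf1, Klb, Atf4, Vldlr, Ddit4, Inhbc, Cdkn1a and those of the fasting, clock and immediate early sets. Replicate numbers are shared by the groups, but nothing in the labels ties them to a litter, batch or day.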

Additional observations from a re-analysis of the deposited data

Results flagged for a closer look

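Gdf15 in treated library 2 stood at 74.0 CPM, far from the other 3 treated libraries at 6.81 to 17.2 CPM, the gap to the nearest being 0.85 of the whole range of the group. It was the only one flagged of 20 groups of 4 values looked at in this way. A chance rate of about 1 in 20 holds for normally distributed values. The check used values without logs and was not repeated on the log scale, so that rate may not apply here.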

How the results depend on the processing

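The direction of change was the same in every alternative run for 7 of the 9 genes, and turned for Angptl4 and Inhbe. For Angptl4 it was 0.0695 with limma-voom, 0.0333 with limma on log2(FPKM + 1) whether or not a mean FPKM of 0.5 was required, 0.0362 with a pseudocount of 0.1, 0.0791 as a difference of mean log2(CPM + 0.5), and from -0.26 to 0.26 with a library left out. For Inhbe it ran from -0.66 to 0.0819 with a library left out. Among partners near 0, Cth turned to 0.0033 with all genes kept, 0.0325 with limma-voom and 0.0626 after the length and GC correction, and ran from -0.23 to 0.16 with a library left out. Atf5 was at -0.18 after that correction, and Ppara at -0.0017 with library size alone, at -0.0012 in each of the FPKM fits and from -0.0015 to 0.0863 with a library left out. The number of the 9 genes called was 3 with DESeq2, 1 with limma on log2(FPKM + 1) and the FPKM filter, 1 without controls 2 and 4, and 0 to 1 with a library left out. The number free of overlap was 1 to 3 with a library left out. Smaller groups part more easily, and the share of all genes free of overlap was not counted in those fits. The 1184 calls over all genes became 2153 with DESeq2, 773 with limma on log2(FPKM + 0.1), 690 with a pseudocount of 1 and no filter, 580 after the length and GC correction, and 183 to 2330 with a library left out. The causes were not tested. Same-numbered libraries were not shown to be paired (correlations of their deviations from -0.01 to 0.18), and the fit with the replicate number as a block called 0 of the 9 genes and 944 of all, with Angptl4 at 0.075 and Cth at 0.0408. Raw counts were lowest for Fst, with 12 to 67 a library, and fell to 27 for Gdf15 in control 3 and 28 for Fgf21 in control 4. The part of depth in the width of the intervals was not tested. Fst and Eda2r gave no value where a CPM of at least 5 or a mean FPKM of 0.5 was required, nor Npas2 with that CPM filter.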

Other observations

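Genes of the same systems that no comparison above turned on also differed between single libraries. Igfals, the subunit that stabilises circulating IGF complexes, was at 52.6 CPM in control 1 and 206 CPM in control 4, with treated libraries from 78.0 to 197.7 CPM. Ddit4, a stress-induced brake on mTOR, was at 80.5 CPM in control 1, from 1.26 to 5.43 CPM in the other controls and from 6.31 to 10.2 CPM in treated libraries. Inhba, another activin subunit gene, was at 8.17 CPM in control 1 and from 18 to 24.8 CPM in the other controls, against 7.82 to 18.7 CPM in treated libraries. Irs2, an insulin receptor substrate, stood at 43.2 ± 14.1 against 24.6 ± 6.81 CPM (SD, n = 4; edgeR adjusted p = 0.0988). These 4 genes were chosen after their values were seen.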
